A study of Mus musculus with 8 samples.

Results

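The Eph receptors are receptor tyrosine kinases of the cell surface, and 10 of the 14 measured in the nuclei of the mouse striatum are described here across cell types and inbred strains. They are Epha3, Epha4, Epha5, Epha6, Epha7, Epha8, Epha10, Ephb1, Ephb2 and Ephb6, rows of a matrix of 32285 genes. The set was built around Epha6, which was chosen from its low level in Drd2+ relative to Drd1+ neurons of PWK/PhJ mice in these same data. Its levels in those clusters are therefore given as a description, with no test between strains. The other 9 receptors were tested across strains. The receptors not taken up, Epha1, Epha2, Ephb3 and Ephb4, had a pooled level in Drd1+ neurons of 0.0769, 0.0481, 0.163 and 0.279 CPM, a gene's count per total count of the library times 1e+06.

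Nuclei came from frozen striatum, the main input nucleus of the basal ganglia, of 12-week-old mice of 8 inbred strains, with 4 mice in each strain and 32 mice in all. The wild-derived strains were PWK/PhJ, WSB/EiJ and CAST/EiJ, and the classical ones C57BL/6, A/J, NZO/HlLtJ, 129S1/SvImJ and NOD/ShiLtJ. Mice of all strains carried no transgene or treatment named in the labels. Each of 4 batches held 1 mouse of every strain, 4 males and 4 females, whose nuclei were mixed before loading and later assigned to a strain from the genetic variants in their reads, so that strain and batch together identify a mouse. The sex of each mouse was not given, so sex was no term in the fits, and a strain's mean may rest on unequal numbers of males and females. RNA and open chromatin were measured in the same nuclei. The strains differ at a very large number of sites over the whole genome. A strain difference in one receptor is thus a difference between strains, and whether any one locus accounts for it was not tested.

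Eph receptors bind ephrins, ligands that are themselves held on the surface of a neighbouring cell, so that signalling needs contact between cells. EphA receptors bind mainly the lipid-anchored ephrin-A ligands and EphB receptors mainly the transmembrane ephrin-B ligands, and both sides of the pair can signal. They are known for steering axons, for sorting cells into compartments, including striosome and matrix in the striatum, and for shaping dendritic spines and synapses. EphA10 and EphB6 lack kinase activity and act together with other receptors.

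The genes lie on 6 chromosomes of build GRCm38.p6, with RefSeq positions. Epha6 is the longest of them, at chr16:59641433-60610911 (969.5 kb), and Epha3 follows it on the same chromosome at chr16:63543532-63864175, 2.933 Mb away. Chromosome 4 holds Epha7 at chr4:28813066-28967503, Epha10 at chr4:124881530-124917801, and Ephb2 at chr4:136647536-136836326, which lies 93.1 kb from Epha8 at chr4:136929419-136956859. The others are Epha4 at chr1:77367182-77515107, Epha5 at chr5:84054761-84417818, Ephb6 at chr6:41603834-41620509 and Ephb1 at chr9:101922128-102354693. The deposited index of open chromatin peaks over all batches listed 100 peaks over Epha6, 28 over Epha3 and 115 over Ephb1. Small annotated genes lie inside Epha3, Epha4, Epha5, Epha6, Epha10, Ephb1 and Ephb2, and reads from such overlaps may be counted for either gene.

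The promoters of Epha6 and of Epha3 and Epha10, the tested receptors with the smallest adjusted p between strains in projection neurons, are shown because they hold an annotated transcription start of each. Each is the 300 bases from 250 before to 50 after the RefSeq start, written along the gene's own strand, with each GGGCGG or its complement CCGCCC, the core of the GC box, in capitals. Epha6 is at chr16:60605482-60605781 (minus strand), Epha3 at chr16:63864126-63864425 (minus strand) and Epha10 at chr4:124881535-124881834 (plus strand). The Epha6 and Epha10 windows lie inside their annotated gene intervals, which reach farther upstream.
Epha6: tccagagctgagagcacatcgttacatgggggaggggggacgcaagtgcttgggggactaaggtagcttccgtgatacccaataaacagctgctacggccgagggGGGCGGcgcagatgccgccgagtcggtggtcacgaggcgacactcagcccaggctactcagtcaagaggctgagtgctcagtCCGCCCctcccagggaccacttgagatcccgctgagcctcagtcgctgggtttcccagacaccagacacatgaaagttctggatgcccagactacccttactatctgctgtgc
Epha3: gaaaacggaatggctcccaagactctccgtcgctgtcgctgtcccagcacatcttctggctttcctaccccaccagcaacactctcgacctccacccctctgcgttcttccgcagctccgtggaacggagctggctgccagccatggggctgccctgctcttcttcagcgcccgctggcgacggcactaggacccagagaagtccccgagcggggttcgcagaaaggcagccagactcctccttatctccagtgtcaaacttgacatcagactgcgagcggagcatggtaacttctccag
Epha10: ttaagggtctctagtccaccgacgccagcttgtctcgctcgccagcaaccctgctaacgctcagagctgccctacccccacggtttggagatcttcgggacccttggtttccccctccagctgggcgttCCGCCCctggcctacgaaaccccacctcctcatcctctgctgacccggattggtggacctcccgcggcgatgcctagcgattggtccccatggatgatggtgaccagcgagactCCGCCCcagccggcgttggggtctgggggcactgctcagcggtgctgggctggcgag
The motif stands in the Epha6 and Epha10 windows and not in that of Epha3, and it is found on either strand in 35.7% of the 32851 promoters of the table. The windows of Epha6, Epha3 and Epha10 had a GC content of 60.3%, 60.7% and 65.3%, against a median of 52.7% over all promoters. These 3 and those of Epha4, Ephb2 and Ephb6 overlapped a deposited peak, as did 53.1% of all promoters. The letters are those of the reference strain, and alleles of the other strains are not analysed here.

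Of 89339 barcodes in the matrices, 55672 nuclei with a cluster and a strain entered, 944 to 4416 per mouse, with a median of 4329 transcripts counted per nucleus. Batch 3 was the shallowest, with a median of 3232 against 4593 to 4931 in the others. Between batches, 4344 barcode sequences were shared (1517 among the kept nuclei). Summed totals ran from 1710451 to 9416806 counts per mouse in Drd1+ neurons (direct-pathway projection neurons) and from 1251786 to 6803437 in Drd2+ neurons (indirect-pathway projection neurons). The cluster names are the authors'. Drd1 stood at a pooled 219 CPM in Drd1+ neurons and 10.2 in Drd2+ neurons, against 21.0 in oligodendrocytes and 49.9 in endothelium. Drd2 was at 437 CPM in Drd2+ and 11.9 in Drd1+ neurons, Mbp at 7461 in oligodendrocytes, Gja1 at 1112 in astrocytes and Nxph1 at 2703 in Nxph1+ interneurons. Mural cells were less clear: Vtn (2692 CPM) and Pdgfrb (662) were higher there than in endothelium (731 and 119), but Rgs5 was lower (403 against 1854), and the neuronal gene Penk was at 503. Of the summed levels of 18 marker lists, A/J stood above all other mice for indirect-pathway genes in Drd1+ neurons (226 ± 27.8 CPM, SD, n = 4, against a mean of 120). This excess was nearly all from Penk, at 194 against 88.5 CPM, and not from the list as a whole. WSB/EiJ stood above all others for fibroblast genes in both projection neuron clusters (46.1 and 42.9 CPM against 2.70 and 2.43, nearly all from Dcn). No other strain's sum stood clear of all other mice in these 2 clusters, nor in oligodendrocytes, astrocytes, Drd1+ neuron_2 or Nxph1+ interneurons. The mice are separate animals, and fewer nuclei of a subtype and less RNA per nucleus cannot be told apart within a cluster.

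Across cell types the receptors fell into different places. Levels below are CPM over a library's total, as mean ± SD over mice with at least 10 nuclei of the cluster, and they are compared between clusters for 1 gene at a time, since the counts are not scaled to gene length. The words highest and lowest refer to the 14 clusters with enough mice to rank. Among the clusters with enough mice to rank, Epha6 was highest in projection neurons and Nxph1+ interneurons, at 1029 ± 258 CPM in Drd2+ neurons, 1006 ± 153 in Drd1+ neurons (n = 32 each), 977 ± 264 in Nxph1+ interneurons and 922 ± 225 in Drd1+ neuron_2, a second cluster of the authors' Drd1+ neurons. It was lowest in macrophages, astrocytes and oligodendrocytes, with 19.1, 13.0 ± 11.2 and 10.5 ± 5.24 CPM. The few Chat+ (cholinergic) interneurons, not ranked, had 1053 ± 230 CPM of Epha6 (n = 3). Mural cells (552 ± 202, n = 20) and endothelium (384 ± 193) lay between. These clusters also held the neuronal gene Drd1 at 69.1 and 49.9 pooled CPM, against 219 in Drd1+ neurons. Pde10a and Rgs9, projection neuron genes, were at 2311 and 585 pooled CPM in mural cells and 1125 and 304 in endothelium. In Drd1+ neurons they stood at 3032 and 822. The part of RNA from neurons in the Epha6 levels of mural cells and endothelium was not tested.

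Epha4, a receptor that binds both ephrin classes, had a like order with 382 ± 130 CPM in Nxph1+ interneurons, 365 ± 35.5 in Drd2+ neurons and 337 ± 32.0 in Drd1+ neurons, and 26.6 ± 16.4 in macrophages. Epha5 and Epha7, known for axon mapping and dendrite growth in the cortex, were highest in neurons with the vesicular glutamate transporter gene Slc17a7. Epha5 reached 950 ± 242 CPM in Slc17a7+ neuron_2, 735 ± 149 in Slc17a7+ neuron and 771 ± 231 in Nxph1+ interneurons, but 286 in Drd2+ neurons and 21.1 ± 7.46 in oligodendrocytes. Epha7 reached 493 ± 79.4 CPM in Slc17a7+ neuron, 326 in Drd2+ neurons and 312 in Drd1+ neurons, with 8.72 in oligodendrocytes. In the small clusters pooled over mice, Epha5 was at 1503 CPM in Chat+ interneurons and 1291 in Sst+ interneurons, above any cluster with enough mice to rank.

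Epha3, a receptor for ephrin-A5, was highest in the cluster that the authors call Unknown (348 ± 203 CPM), with 220 in Nxph1+ interneurons and 200 ± 77.6 in Drd1+ neuron_2. Its level was 68.7 ± 24.0 CPM in Drd1+ neurons and 53.2 ± 25.5 in Drd2+ neurons, and 1.17 in oligodendrocytes. Fibroblasts, pooled over mice, had 437 CPM of Epha3 and 512 of Epha7. Ephb1, known for guiding axons at the optic chiasm, had another order: it was highest in oligodendrocytes (492 ± 87.2 CPM) and Polydendrocyte/Oligodendrocyte (442 ± 310), followed by Drd1+ neurons (367 ± 45.3), astrocytes (323 ± 62.3) and Drd2+ neurons (269 ± 41.8). It was lowest in macrophages at 27.7 CPM.

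The remaining 4 receptors were sparse. Among the ranked clusters, Epha8 was highest in Drd1+ neuron_2 (15.9 ± 10.3 CPM), with 12.4 in Drd2+ and 12.2 in Drd1+ neurons. Epha10 was highest among them in Nxph1+ interneurons (75.4 ± 40.9 CPM), with 26.1 in Drd1+ and 23.6 in Drd2+ neurons. Ephb2, known for clustering glutamate receptors at synapses, was at 134 ± 62.7 CPM in the Unknown cluster and 71.6 ± 23.0 in Slc17a7+ neuron, but at 3.99 in Drd1+ and 3.86 in Drd2+ neurons. Ephb6 was highest in Slc17a7+ neuron (48.2 ± 16.6 CPM), at 16.5 ± 2.88 in Drd1+ neurons and lowest in Drd1+ neuron_2 (3.21 ± 3.97). Over 14 ranked clusters and 10 receptors, 130 neighbouring pairs were set side by side, and in 3 of them the means lay farther apart than their SDs reach. These were Epha4 from astrocytes to macrophages, and Epha5 from Slc17a7+ neuron to Drd1+ neuron_2 and from endothelium to oligodendrocytes. In every other step the means with their SDs overlapped. This overlap does not pair the clusters of a mouse, so it cannot show that neighbours were alike. Differences between Drd2+ and Drd1+ neurons within mice are given below.

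**Figure D1:**
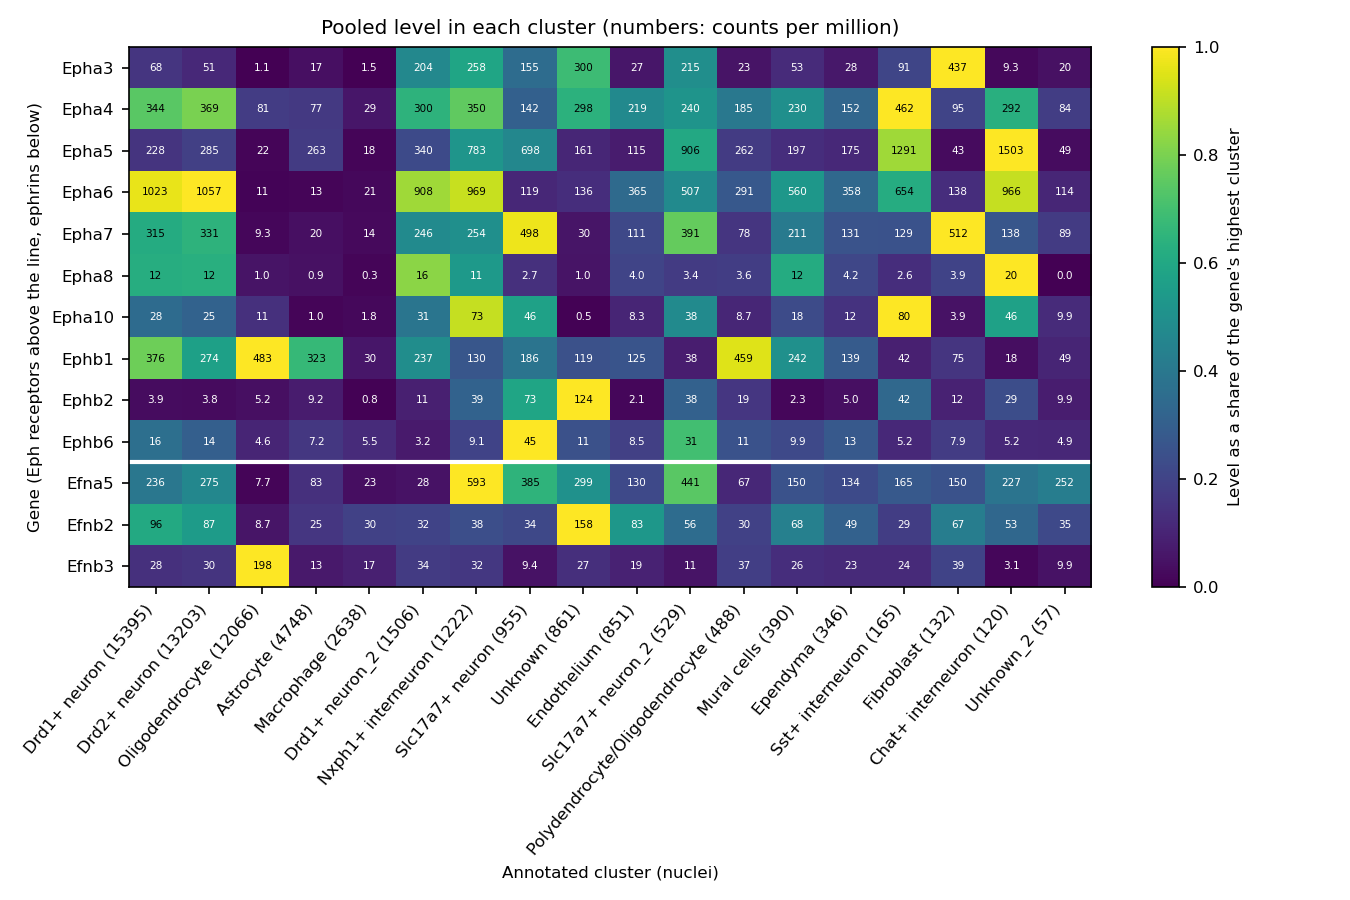
Pooled level of each receptor and of 3 ephrin ligand genes (rows) in each annotated cluster (columns, with the number of nuclei); the printed numbers are CPM and the colour is the share of that gene's own highest cluster. Epha6 is bright (near its own highest cluster) over projection neurons and Nxph1+ interneurons and dark over oligodendrocytes, whereas Ephb1 is brightest over oligodendrocytes.

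Epha6 in PWK/PhJ mice lay below every other mouse in both large projection neuron clusters, and the gap was wider in Drd2+ neurons. From here on, levels by strain are CPM over library totals scaled by the trimmed mean of M-values (TMM). In Drd1+ neurons the 4 PWK/PhJ mice had 582, 737, 552 and 739 CPM (mean 652 ± 99.8), and the other 28 mice had 889 to 1298 with a mean of 1065. In Drd2+ neurons the PWK/PhJ mice had 373, 445, 333 and 509 CPM (mean 415 ± 78.2), and the others had 869 to 1416 with a mean of 1128. The groups did not overlap in either cluster, and the PWK/PhJ level was 0.70 (SE 0.06) and 1.44 (SE 0.07) lower on the log2 scale, values that belong to the choice of the gene.

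The mean Epha6 level of the other 7 strains ran from 949 ± 62.1 CPM (WSB/EiJ) to 1170 ± 112 (129S1/SvImJ) in Drd1+ neurons and from 1004 ± 62.9 (CAST/EiJ) to 1322 ± 84.1 (129S1/SvImJ) in Drd2+ neurons. CAST/EiJ, like PWK/PhJ a wild-derived strain, had mice that overlapped with those of the classical strains in both clusters. The lowest mouse of the other strains in Drd1+ neurons was from CAST/EiJ, with 889 CPM against 739 in the highest PWK/PhJ mouse.

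PWK/PhJ did not stand apart for Epha6 in the other neurons with enough nuclei. In Drd1+ neuron_2 the PWK/PhJ mice had 1276, 1450, 995 and 775 CPM (mean 1124 ± 299), inside the range of the others (662 to 1508, mean 1003). In Nxph1+ interneurons they had 1781, 1257, 1866 and 683 CPM (mean 1397 ± 547), against 575 to 1835 with a mean of 1159 in the others. The strain term, a test of whether any of the 8 strains differ (edgeR quasi-likelihood F-test with batch as a term, p adjusted over all genes of the cluster), gave an adjusted p = 0.0993 for Epha6 in Drd1+ neuron_2 and 0.363 in Nxph1+ interneurons. Without batch 4 the first fell to adjusted p = 0.00102, and without a filter on low counts to 0.00453, with values between 0.00102 and 0.418 in the settings tried. In oligodendrocytes, endothelium and Polydendrocyte/Oligodendrocyte the adjusted p was 0.485, 0.700 and 0.415. The low Epha6 level of PWK/PhJ was thus seen in the 2 large projection neuron clusters; whether the strain difference there departs from that in Drd1+ neuron_2 was not tested. The marker sums of PWK/PhJ overlapped those of the other mice, with direct-pathway genes at 585 CPM against 684 in Drd1+ neurons and indirect-pathway genes at 1955 against 1900 in Drd2+ neurons.

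**Figure D2:**
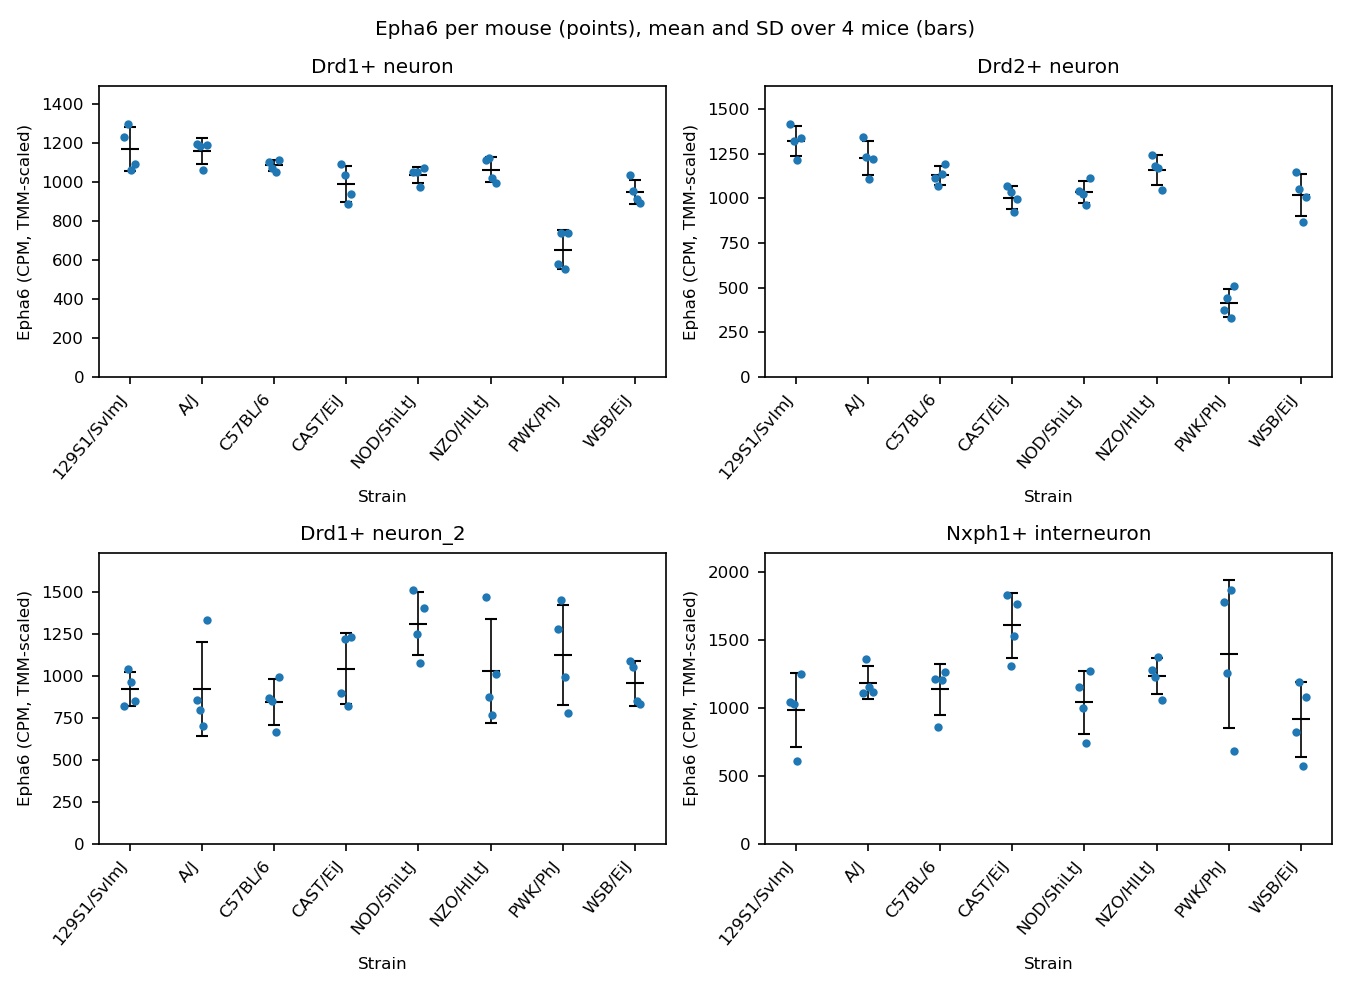
Epha6 level (CPM over TMM-scaled totals, y axis) in each mouse by strain (x axis) in 4 neuron clusters, with bars for the mean and SD of 4 mice. The PWK/PhJ points lie below all others in Drd1+ and Drd2+ neurons and overlap with the others in Drd1+ neuron_2 and Nxph1+ interneurons.

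Among the 9 tested receptors, the level differed between strains for 7 of 9 in Drd1+ neurons and 8 of 9 in Drd2+ neurons (edgeR strain term, adjusted p at most 0.05). Of all genes tested, 61.7% and 55.9% passed in these clusters, and 9 genes are too few to read a share from. The receptors that did not pass were Ephb2 (adjusted p = 0.0515) and Epha5 (0.0605) in Drd1+ neurons and Epha5 (0.0937) in Drd2+ neurons. Ephb2 in Drd1+ neurons passed with no filter on low counts (adjusted p = 0.0186, range over the alternatives 0.0186 to 0.21). The sizes differed more than the calls: the span from the lowest to the highest strain was 2.08 on the log2 scale for Epha10, 1.24 for Epha3 and 0.36 for Epha4 in Drd1+ neurons.

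Epha3 was high in CAST/EiJ and PWK/PhJ. In Drd1+ neurons the CAST/EiJ mice had 112, 119, 88.6 and 118 CPM (109 ± 14.2) and the PWK/PhJ mice 114, 108, 99.4 and 96.9 CPM (104 ± 7.71). The highest of the 24 mice of the other 6 strains had 75.6 CPM, so the 8 mice of these strains did not overlap with the rest. In Drd2+ neurons CAST/EiJ had 95.8, 107, 88.9 and 97.3 CPM and PWK/PhJ 90.0, 90.5, 90.5 and 87.4 CPM, all above the 60.8 CPM of the highest other mouse. At the other end NZO/HlLtJ was lowest in Drd1+ neurons with 40.7, 50.2, 51.0 and 42.9 CPM, and A/J in Drd2+ neurons with 39.2, 26.8, 18.7 and 34.0 CPM. The strain term had an adjusted p = 7.05e-16 in Drd1+ and 3.33e-17 in Drd2+ neurons (edgeR), with spans of 1.24 and 1.73 on the log2 scale. PWK/PhJ thus had a high Epha3 beside its low Epha6, 2.933 Mb away, and CAST/EiJ a high Epha3 with no low Epha6.

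Epha10, the receptor without kinase activity, was high in A/J and low in NOD/ShiLtJ. The A/J mice had 53.4, 45.5, 47.8 and 59.2 CPM in Drd1+ neurons (51.5 ± 6.12), and the highest of all other mice had 43.0. In Drd2+ neurons they had 52.6, 44.4, 54.2 and 60.8 CPM (53.0 ± 6.76), and the highest other mouse had 34.8. A/J was the only strain in which a tested receptor stood clear of all other 28 mice, and this held in both clusters for Epha10 alone. How many of all genes stand clear in this way was not counted, so the finding cannot be set against a share. The NOD/ShiLtJ mice had 6.23, 10.1, 15.9 and 16.5 CPM in Drd1+ neurons and 3.43, 4.04, 9.50 and 9.06 in Drd2+ neurons, below the C57BL/6 mice in Drd1+ neurons and overlapping with them in Drd2+ neurons. The strain term had an adjusted p = 9.63e-12 and 2.15e-14 (edgeR), and the span of 3.03 on the log2 scale in Drd2+ neurons was wider than that of any other tested receptor. In the same A/J Drd1+ libraries the indirect-pathway marker sum was also above that of all other mice (above), nearly all through Penk. The part of this sum in the Epha10 level was not tested.

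Epha7 was highest in WSB/EiJ in both clusters. The WSB/EiJ mice had 447, 351, 423 and 399 CPM in Drd1+ neurons (405 ± 41.0) and 410, 421, 390 and 414 in Drd2+ neurons (409 ± 13.3). CAST/EiJ was lowest in Drd2+ neurons with 252, 274, 206 and 256 CPM, and NZO/HlLtJ (256 ± 17.6) and CAST/EiJ (258 ± 40.2) shared the low end in Drd1+ neurons. The lowest WSB/EiJ mouse stood above all CAST/EiJ and NZO/HlLtJ mice in each cluster. The adjusted p of the strain term was 6.97e-08 and 2.15e-10 (edgeR), with spans of 0.66 and 0.73 on the log2 scale. In the same WSB/EiJ libraries the fibroblast marker sum was above that of all other mice in both clusters (46.1 and 42.9 CPM, nearly all from Dcn), and fibroblasts had 512 pooled CPM of Epha7; its part in the Epha7 level was not tested.

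Epha8, a sparse gene, had spans of 0.95 and 0.98 on the log2 scale, and Epha4 had 0.36 and 0.37. In Drd1+ neurons Epha8 was highest in NOD/ShiLtJ (15.9 ± 3.11 CPM) and PWK/PhJ (14.8, 17.3, 12.2 and 19.4 CPM). CAST/EiJ was at the low end with 7.39, 8.41, 4.32 and 12.7 CPM, and the adjusted p was 1.32e-05. In Drd2+ neurons PWK/PhJ had 11.4, 25.3, 16.3 and 17.2 CPM and CAST/EiJ 8.62 ± 3.33, with an adjusted p = 0.00566 that rose to 0.0602 without batch 3 (range over the alternatives 2e-04 to 0.0602). The ranges of the strains overlap for this sparse gene. Epha4 was highest in A/J in Drd1+ neurons (420, 423, 338 and 420 CPM) and in 129S1/SvImJ (424 ± 36.5) and A/J (423 ± 34.6) in Drd2+ neurons. The lowest strains were WSB/EiJ (313 ± 25.4) and NOD/ShiLtJ (328 ± 13.4) in turn. The adjusted p was 0.00121 and 3.16e-05 (edgeR), and the first became 0.0546 without batch 4 (range 2.8e-05 to 0.0546).

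Epha5 was highest in NZO/HlLtJ, at 276 ± 31.6 CPM in Drd1+ and 358 ± 50.7 in Drd2+ neurons, and PWK/PhJ had 202 ± 48.8 and 260 ± 71.7. The spread within strains was large: PWK/PhJ mice ran from 151 to 269 CPM in Drd1+ neurons. Its strain term passed with DESeq2, with no filter, with no batch term and without batch 4, where the adjusted p was 0.000474 and 0.00132 in the 2 clusters, in ranges of 1.35e-07 to 0.295 and 4.89e-08 to 0.364.

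Of the EphB receptors, Ephb1 was high in CAST/EiJ and low in PWK/PhJ, the 2 strains that shared the high Epha3. In Drd1+ neurons the CAST/EiJ mice had 497, 489, 403 and 391 CPM (445 ± 55.8) and the PWK/PhJ mice 360, 317, 273 and 269 CPM (305 ± 42.6), without overlap between them. In Drd2+ neurons the means were 340 ± 52.0 and 243 ± 48.9 CPM, with overlap. The adjusted p was 1.29e-06 and 4.85e-06 (edgeR), with spans of 0.55 and 0.49 on the log2 scale.

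Ephb6 was highest in WSB/EiJ in Drd1+ neurons, with 20.4 ± 0.977 CPM, and high in WSB/EiJ (17.7 ± 3.56) and 129S1/SvImJ (17.4 ± 2.53) in Drd2+ neurons. It was lowest in NZO/HlLtJ, with 13.3 ± 1.74 and 9.03 ± 4.03 CPM. Its adjusted p of 0.0141 in Drd1+ neurons did not pass without batch 2, 3 or 4 (0.0812, 0.0599 and 0.0840) or with DESeq2 (0.0598), in a range of 0.0129 to 0.0840. In Drd2+ neurons the adjusted p of 0.00314 became 0.0573 without batch 1 (range 0.000231 to 0.0573). Ephb2 was low, with strain means from 2.81 CPM (PWK/PhJ) to 5.50 (NZO/HlLtJ) in Drd1+ neurons and from 1.96 (CAST/EiJ) to 5.82 (NZO/HlLtJ) in Drd2+ neurons. Its Drd2+ adjusted p of 0.0187 became 0.0948, 0.0715 and 0.102 without batch 2, 3 and 4 (range 0.00525 to 0.102).

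**Figure D3:**
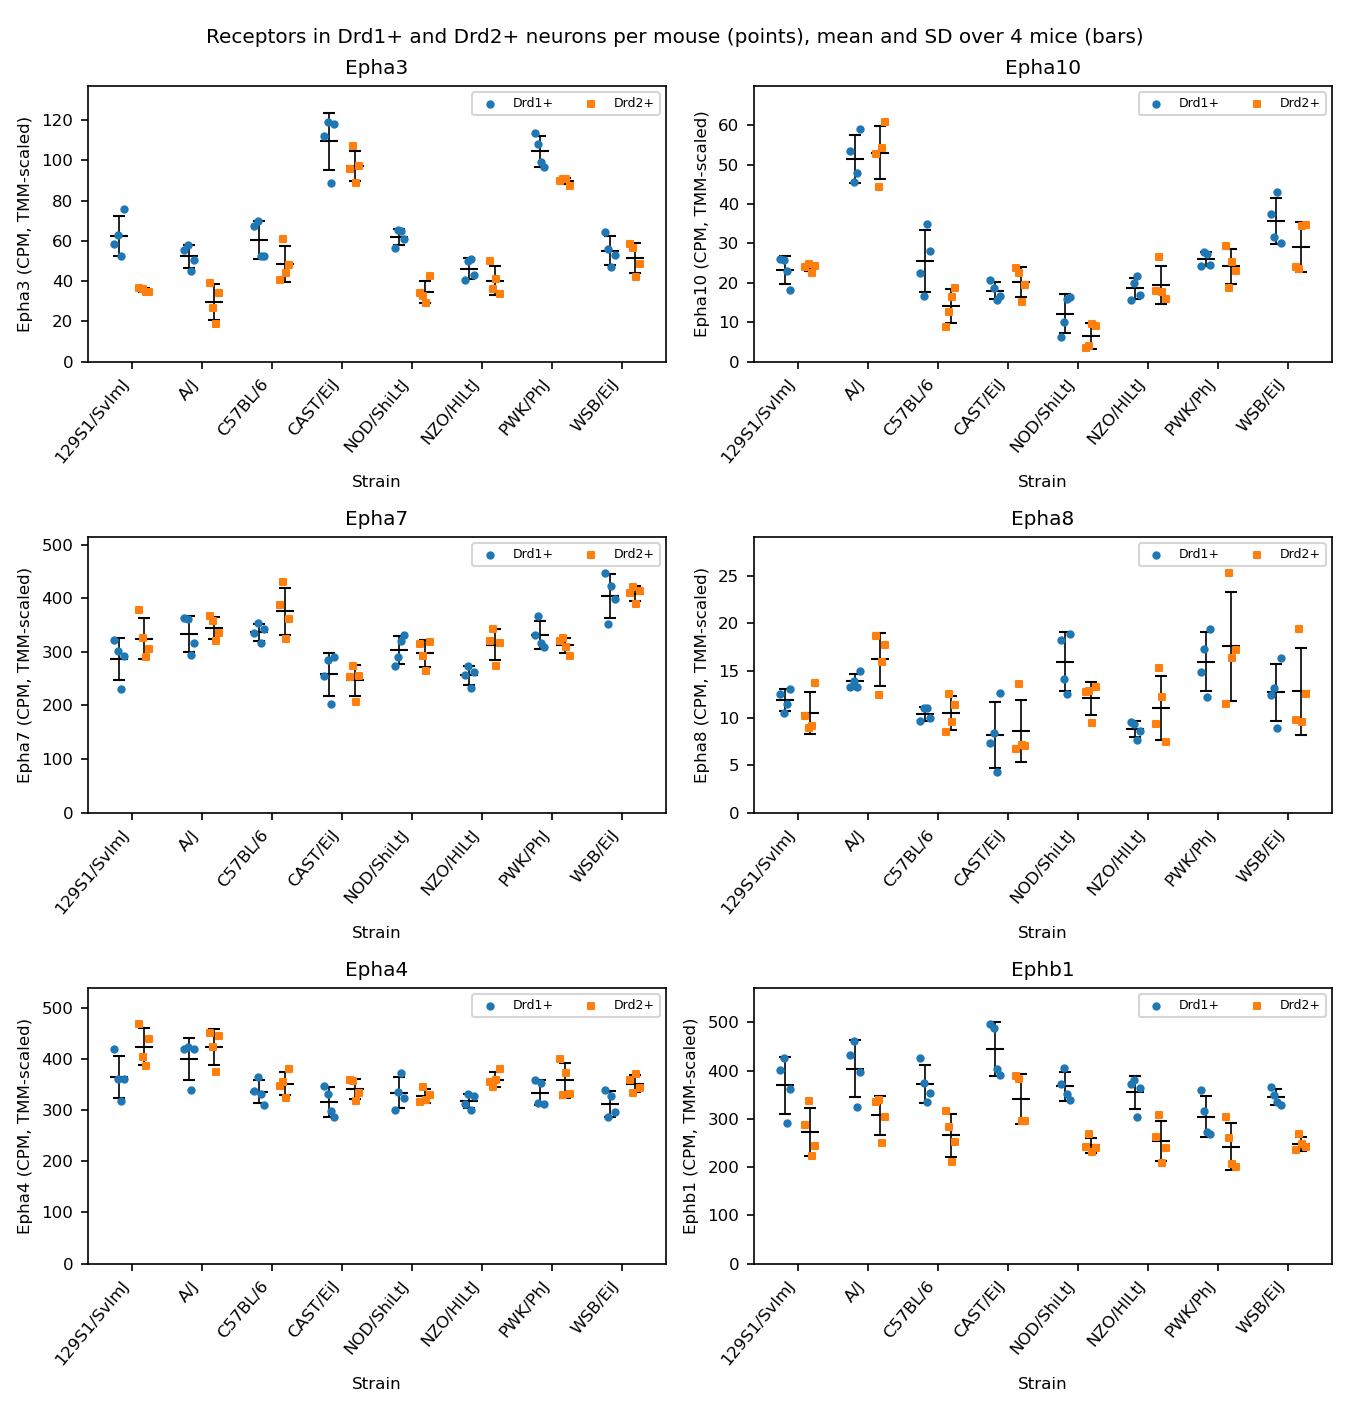
Level (CPM over TMM-scaled totals, y axis) of Epha3, Epha10, Epha7, Epha8, Epha4 and Ephb1 in each mouse by strain (x axis), blue circles for Drd1+ and orange squares for Drd2+ neurons, with bars for the mean and SD of 4 mice. Epha3 is high in CAST/EiJ and PWK/PhJ, Epha10 in A/J and Epha7 in WSB/EiJ, in both clusters.

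The receptors of each strain were next compared with their mean over the remaining 7. These comparisons share mice, since every strain is also part of the other strains' reference. Over 72 pairs of strain and receptor, 24 passed in Drd1+ and 26 in Drd2+ neurons (edgeR, adjusted p at most 0.05), and 15 and 14 of these passed in each of the 9 alternative settings tried. For the other calls, the left-out batches that lost them are named below. Those that DESeq2 also lost are listed after the strains. Some were also lost with no batch term, no filter on low counts or another scaling.

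In the wild-derived strains, PWK/PhJ had 3 of 9 receptors called in each cluster, against 34.3% of all genes in Drd1+ and 30.3% in Drd2+ neurons. Epha3 was higher by 0.76 (SE 0.07) and 1.00 (SE 0.09) on the log2 scale and Epha8 by 0.47 (SE 0.12) and 0.59 (SE 0.17), with edgeR adjusted p = 6.46e-12 and 2.11e-12, and 0.00184 and 0.00496. Ephb1 was lower, with a log2 difference of -0.32 (SE 0.06, adjusted p = 1.22e-05) and -0.18 (SE 0.07, adjusted p = 0.0274). The Drd2+ call of Ephb1 was lost without batch 2, 3 or 4, and its log2 difference ran from -0.27 to -0.12 over the alternatives. CAST/EiJ had 5 receptors called in Drd1+ neurons, against 32.8% of all genes, and 4 in Drd2+ neurons, against 28.1%. Its Epha3 was higher by 0.83 (SE 0.07) and 1.14 (SE 0.09), and its Ephb1 by 0.31 (SE 0.05) and 0.38 (SE 0.06). Its Epha7 was lower (-0.31, SE 0.07, and -0.45, SE 0.06), and so was Epha8 (-0.61, SE 0.15, and -0.53). The Drd2+ Epha8 call was lost without batch 1, 3 or 4 (range -0.78 to -0.42), and a call of lower Epha10 in Drd1+ neurons (-0.44) was lost without batch 3 or 4 (range -0.56 to -0.34). Epha8 and Ephb1 therefore stood on opposite sides in the 2 strains, while Epha3 was high in both. WSB/EiJ had 4 called in Drd1+ neurons, against 17% of all genes, and 3 in Drd2+ neurons, against 15.3%. Its Epha7 was higher by 0.44 (SE 0.06) and 0.38 (SE 0.05) and its Epha10 by 0.63 (SE 0.12) and 0.54 (SE 0.14). A higher Ephb6 (0.35 and 0.41) was lost without batch 1, 2 or 4 in Drd1+ neurons (range 0.33 to 0.37) and without any 1 batch in Drd2+ neurons (range 0.26 to 0.50). Its lower Epha3 in Drd1+ neurons (-0.29) was lost without batch 2 (range -0.38 to -0.25).

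Of the classical strains, A/J had 4 of 9 called in each cluster, against 17.2% and 15.2% of all genes, and the same genes in the same directions in both. Epha10 was higher by 1.25 (SE 0.11) and 1.55 (SE 0.11), Epha4 by 0.28 (SE 0.06) and 0.24 (SE 0.05), and Epha3 was lower (-0.38, SE 0.08, and -0.84, SE 0.10). A/J's higher Ephb1 (0.15 and 0.21) was lost without batch 1, 2 or 4 in Drd1+ neurons (range 0.12 to 0.20) and without batch 2 or 4 in Drd2+ neurons (range 0.17 to 0.24). NOD/ShiLtJ had 2 called, against 15.9% of all genes, and 3, against 12.1%. Its Epha10 was lower by more than that of any other strain, with log2 differences of -1.12 (SE 0.17, adjusted p = 3.46e-06, edgeR) and -1.91 (SE 0.20, adjusted p = 9.28e-10), and its Epha3 was lower in Drd2+ neurons (-0.55, SE 0.11). Its higher Epha8 in Drd1+ neurons (0.47) was lost without batch 1 (range 0.39 to 0.54) and its lower Epha4 in Drd2+ neurons (-0.18) without batch 1 or 4 (range -0.22 to -0.15).

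NZO/HlLtJ had 6 called in Drd1+ neurons, the most of any strain there, against 19.7% of all genes, and 4 in Drd2+ neurons, against 18.5%. In Drd1+ neurons Epha3 (-0.58, SE 0.08) and Epha7 (-0.32, SE 0.07) were lower in every alternative. Calls of lower Epha10 (-0.45) were lost without batch 1, 3 or 4 (range -0.51 to -0.38), of lower Epha8 (-0.48) without batch 4 (range -0.54 to -0.39), of higher Epha5 (0.29) without batch 1, 2 or 3 (range 0.20 to 0.38) and of lower Ephb6 (-0.33) without any 1 batch (range -0.42 to -0.26). In Drd2+ neurons none of its calls held in every setting: higher Ephb2 (0.74) was lost without batch 1, 2 or 3 (range 0.67 to 0.88), higher Epha5 (0.37) without batch 2 or 3 (range 0.28 to 0.46), lower Ephb6 (-0.61) without batch 1 or 2 (range -0.94 to -0.39) and lower Epha3 (-0.29) without batch 2 or 4 (range -0.39 to -0.20). For 129S1/SvImJ, 0 of 9 were called in Drd1+ neurons (2 at an unadjusted p under 0.05, edgeR), against 12.3% of all genes, and 3 in Drd2+ neurons, against 11.1%. There Epha4 was higher (0.24, SE 0.05) and Epha3 lower (-0.53, SE 0.11), while a higher Ephb6 (0.47) was lost without batch 1, 2 or 4 (range 0.41 to 0.51). For C57BL/6, 0 of 9 were called in Drd1+ neurons (1 at an unadjusted p under 0.05, edgeR), against 13.9% of all genes. In Drd2+ neurons 2 were called, against 11.1%: a higher Epha7 (0.24, SE 0.05), lost without batch 2 (range 0.19 to 0.26), and a lower Epha10 (-0.68, SE 0.17), lost without batch 1 (range -0.80 to -0.47). DESeq2 called 22 of the 72 pairs in Drd1+ and 20 in Drd2+ neurons. Of the calls above it lost Ephb6 of NZO/HlLtJ and WSB/EiJ in Drd1+ neurons. In Drd2+ neurons it lost Ephb6 of 129S1/SvImJ and WSB/EiJ, Epha8 of CAST/EiJ, Ephb2 and Epha3 of NZO/HlLtJ and Ephb1 of PWK/PhJ.

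Between the 2 projection neuron classes of the same mouse, several receptors differed in a steady direction. The ratio is the log2 of the Drd2+ over the Drd1+ level of a mouse. Ephb1 was lower in Drd2+ neurons in 32 of 32 mice (mean log2 ratio -0.43 ± 0.11, from -0.63 to -0.23), and Epha5 was higher in Drd2+ neurons in 32 of 32 (0.32 ± 0.14, from 0.03 to 0.57). Epha4 was higher in Drd2+ neurons in 30 of 32 mice (0.14 ± 0.11), while Epha8 and Ephb2 were higher in 15 of 32 each. Ephb6 was higher in Drd2+ neurons in 9 of 32 mice, with a mean of -0.28. Epha3 was higher there in 3 of 32 mice (-0.41 ± 0.38), Epha7 in 22 (0.09 ± 0.16) and Epha10 in 12 (-0.19 ± 0.45). Such counts of mice were not made over all genes. The ratio of Epha6, which chose the gene, was -0.63, -0.71, -0.70 and -0.51 in the PWK/PhJ mice (-0.64 ± 0.09), and the other strains had means between 0.01 and 0.20.

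The strain differences themselves depended on the class for 3 of the 9 tested receptors, Epha3, Epha7 and Epha10 (edgeR interaction of strain and cluster with each mouse as a block), where 4.58% of all genes passed. Epha3 had an adjusted p = 1.3e-08. Its ratio was near 0 in WSB/EiJ (-0.11, 0.03, -0.12 and -0.09) and strongly negative in A/J (-0.47, -1.07, -1.20 and -0.53), NOD/ShiLtJ (-0.70, -0.96, -1.11 and -0.49) and 129S1/SvImJ (-0.63, -0.77, -0.58 and -1.06). The mice of these 3 strains lay below all 4 WSB/EiJ mice. CAST/EiJ and PWK/PhJ, with the highest Epha3 level in both classes, had mean ratios of -0.14 ± 0.12 and -0.19 ± 0.10. Without the block of mice Epha3 still passed (adjusted p at most 0.0132 over the 9 alternatives).

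Epha7 (adjusted p = 2.42e-05) and Epha10 (adjusted p = 8.5e-05, both edgeR) had other strains at the ends. The Epha7 ratio was 0.34, 0.34, 0.26 and 0.28 in NZO/HlLtJ (0.30 ± 0.04), a higher level in Drd2+ neurons, and -0.03, -0.16, -0.01 and -0.05 in PWK/PhJ (-0.06 ± 0.07). The Epha10 ratio was -0.69, -1.13, -0.66 and -0.77 in NOD/ShiLtJ (-0.81 ± 0.22) and -1.24, -0.36, -1.02 and -0.53 in C57BL/6 (-0.79 ± 0.41), whereas the other strain means ran from -0.26 (WSB/EiJ) to 0.19 (CAST/EiJ). The low Epha10 of NOD/ShiLtJ was therefore deeper in Drd2+ neurons. Without the block that pairs the clusters of a mouse, the adjusted p was 1 for Epha7 and 0.338 for Epha10. Epha4 (0.110), Ephb1 (0.143) and the other 4 tested receptors did not pass.

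**Figure D4:**
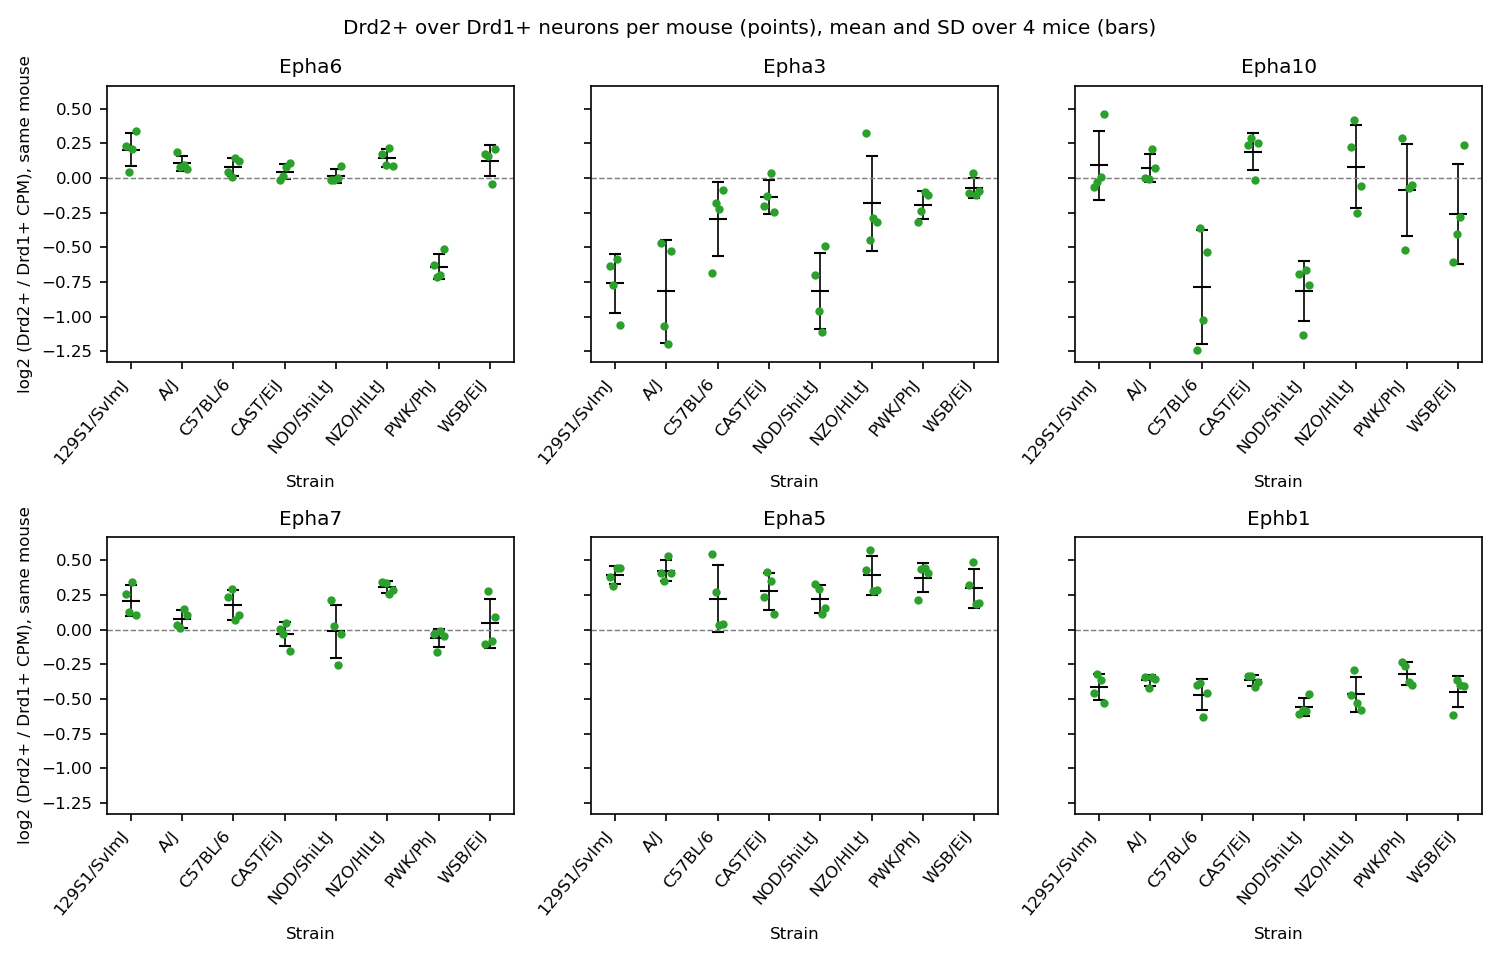
Log2 ratio of the Drd2+ over the Drd1+ level (y axis) in each mouse by strain (x axis) for Epha6, Epha3, Epha10, Epha7, Epha5 and Ephb1, with bars for the mean and SD of 4 mice and a line at 0. Epha6 is below 0 in PWK/PhJ, Ephb1 is below and Epha5 above 0 in all mice, and the Epha3 ratio is lowest in 129S1/SvImJ, A/J and NOD/ShiLtJ.

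In oligodendrocytes, 3 of the 5 receptors with enough counts differed between strains, against 34.8% of all genes. Epha4 was lowest in PWK/PhJ, with 33.3, 43.1, 12.2 and 34.2 CPM, and highest in NZO/HlLtJ, with 83.3, 108, 160 and 151 CPM. PWK/PhJ and CAST/EiJ (45.0 ± 13.4) were at the low end, and none of their mice reached the lowest mouse of NZO/HlLtJ. The adjusted p was 1.82e-06 (edgeR) with a span of 1.93 on the log2 scale, wider than the 0.36 of the same gene in Drd1+ neurons. Epha10 had 34.3, 19.7, 34.9 and 18.9 CPM in A/J and 21.9 ± 6.23 in 129S1/SvImJ, but 4 counts in all in PWK/PhJ and 1 in WSB/EiJ, with an adjusted p = 1.47e-12. The gene was sparse here (10.5 ± 10.3 CPM over all mice). Such a gene can pass the filter on low counts through its high strains alone, and the call was also made with no filter. For Epha10, A/J was at the high end in oligodendrocytes as in projection neurons. WSB/EiJ was second highest in projection neurons and at the low end here, where it had 1 count. For this gene too the difference between the clusters was not tested. Ephb1, whose level was highest in this cluster, had 621, 651, 650 and 634 CPM in PWK/PhJ (639 ± 14.4) and 423, 424, 387 and 390 CPM in NOD/ShiLtJ (406 ± 20.4), with an adjusted p = 2.49e-07. PWK/PhJ was therefore the highest strain for Ephb1 in oligodendrocytes and the lowest in projection neurons; the difference between these clusters was not tested. The summed level of 5 projection neuron genes in oligodendrocytes was 146 to 608 CPM over mice, against 3366 to 5506 in the Drd1+ neurons of strains other than PWK/PhJ, and its part in these levels was not tested.

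In astrocytes, 3 of 5 receptors passed, against 21.5% of all genes. Epha5 had 146, 174, 158 and 184 CPM in PWK/PhJ (166 ± 16.7) and 415, 363, 391 and 376 CPM in WSB/EiJ (386 ± 22.5), with an adjusted p = 1.55e-06 (edgeR) and a span of 1.24 on the log2 scale. The mice of these strains did not overlap. Epha3 was sparse (17.65 ± 14.48 CPM over all mice), with 5 counts in PWK/PhJ against 31.1 ± 12.0 CPM in CAST/EiJ. Its adjusted p of 0.00719 (edgeR) became 0.118 without batch 2 (range 2.16e-05 to 0.118). It too can have passed the filter on low counts through its high strains alone, and the call was also made with no filter. Epha4 had 45.0 ± 15.3 CPM in PWK/PhJ and 99.2 ± 15.7 in WSB/EiJ, and its adjusted p of 0.0350 rose above the threshold without any 1 batch (0.0546, 0.0687, 0.0508 and 0.374 without batch 1, 2, 3 and 4, range over the alternatives 0.0186 to 0.374). The projection neuron gene sum in astrocytes was also lower in PWK/PhJ, at 406 CPM (201 to 527) against 603 (384 to 1132) in the others, and its part in the PWK/PhJ values was not tested.

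Among the smaller clusters, Drd1+ neuron_2 had 4 of 7 receptors called, against 17.3% of all genes. Epha3 was again highest in CAST/EiJ (340 ± 78.7 CPM) and PWK/PhJ (285 ± 29.2), and lowest in C57BL/6 (147 ± 40.9), with an adjusted p = 6.91e-06 (edgeR). Epha5 had 474, 454, 525 and 600 CPM in WSB/EiJ and 245 ± 54.7 in PWK/PhJ, with an adjusted p = 1.54e-05, and the PWK/PhJ mice lay below the WSB/EiJ mice without overlap. Epha10 (56.2 ± 15.2 CPM in A/J, 15.1 ± 10.0 in NZO/HlLtJ) had an adjusted p of 0.00350 (edgeR), lost without batch 1 (0.0556) and batch 2 (0.125). It was sparse here (30.7 ± 14.8 CPM over all mice) and can have passed the filter on low counts through its high strains alone. The call was also made with no filter. Epha7 (407 ± 150 CPM in A/J, 177 ± 23.4 in NOD/ShiLtJ) had an adjusted p of 0.0387, lost without batch 1 (0.232) and batch 2 (0.0562) and with a minimum of 30 nuclei per library (0.137). The adjusted p of these receptors ranged from 0.00365 to 0.125 for Epha10 and from 1.65e-07 to 0.232 for Epha7 over the alternatives. In Nxph1+ interneurons 0 of 7 passed with edgeR (3 at an unadjusted p under 0.05, 1 with DESeq2), against 1.53% of all genes. In endothelium 0 of 5 passed (0 at an unadjusted p under 0.05, 0 with DESeq2), against 3.23%, and in Polydendrocyte/Oligodendrocyte 0 of 4 (3 at an unadjusted p under 0.05, 0 with DESeq2), against 1.24%. In macrophages no receptor passed the filter on low counts, so none was tested there. The strain term called 24.8% of the genes that were tested in that cluster. In simulated data with no batch effect, changes of 2-fold in 1 strain were given to genes drawn at random from those tested. They were recovered for 39.5% of these genes in Nxph1+ interneurons, 8.29% in endothelium and 4.1% in Polydendrocyte/Oligodendrocyte. Most differences of that size would thus be missed over the tested genes as a whole. Recovery at the levels of the receptors themselves was not simulated.

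**Figure D5:**
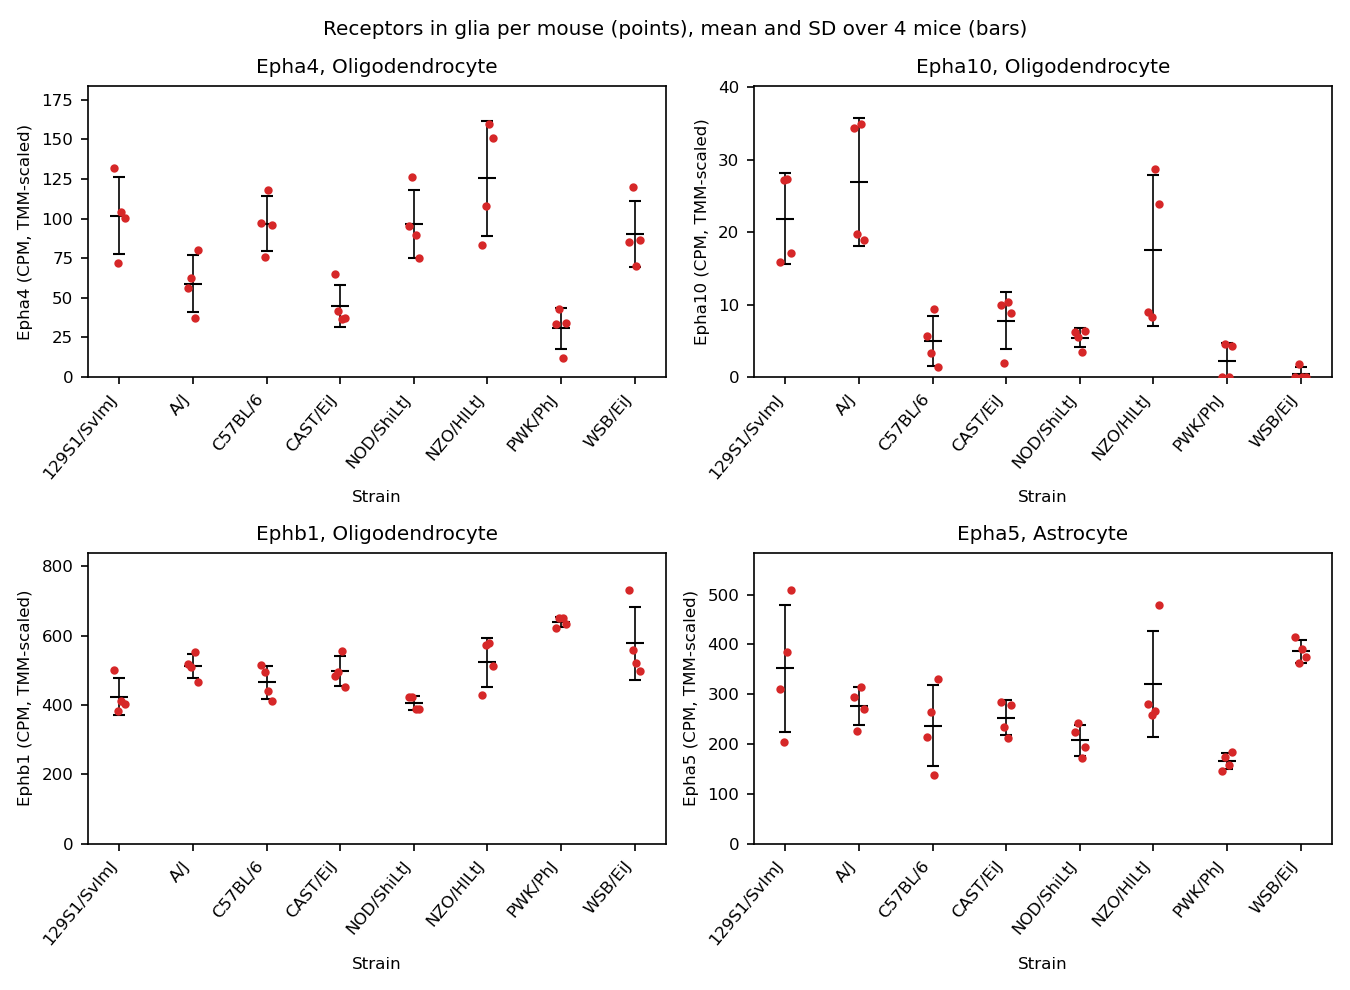
Level (CPM over TMM-scaled totals, y axis) of Epha4, Epha10 and Ephb1 in oligodendrocytes and of Epha5 in astrocytes, in each mouse by strain (x axis), with bars for the mean and SD of 4 mice. PWK/PhJ is lowest for Epha4 and highest for Ephb1 in oligodendrocytes, and lowest for Epha5 in astrocytes.

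Some ligands and signalling partners of the receptors differed between strains, in lists too short to read a share from. Of the 5 ephrin-A genes, 3 could be tested in Drd1+ neurons, where 61.7% of all genes passed, and 1 was called, Efna5, a ligand of Epha3 and other EphA receptors. It had 351 ± 1.19 CPM in CAST/EiJ and 128 ± 17.1 in NOD/ShiLtJ, a span of 1.45 on the log2 scale with an adjusted p = 7.92e-09 (edgeR). CAST/EiJ was thus at the high end for both this ligand and Epha3, but not every strain had both. PWK/PhJ, also high for Epha3, had a log2 difference of Efna5 from the other strains of 0.005 in Drd1+ neurons. In Drd2+ neurons its Efna5 was lower (-0.39, SE 0.12, edgeR adjusted p = 0.0113). Efna5 of 129S1/SvImJ was higher in Drd1+ neurons (0.48, SE 0.09, edgeR adjusted p = 0.000297), where its Epha3 was not. In Drd2+ neurons, where 55.9% of all genes passed, Efna5 (adjusted p = 4.77e-05) and Efna3 (0.0294) were called, and Efna5 also passed in oligodendrocytes (4.94e-07), in Nxph1+ interneurons (0.0496) and in the interaction (4.58% of all genes). Of the ephrin-B genes, ligands of the EphB receptors and Epha4, Efnb3 (PWK/PhJ 20.3 ± 2.51 CPM, C57BL/6 33.8, adjusted p = 0.000256) and Efnb2 (span 0.34, adjusted p = 0.0480) were called in Drd1+ neurons and neither in Drd2+ neurons. Efnb3 also passed in oligodendrocytes (0.0206) and Efnb2 in astrocytes (0.0252).

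Of 27 genes for signalling partners, 17 of the 25 tested passed in Drd1+ and 17 of 24 in Drd2+ neurons, against 61.7% and 55.9% of all genes. The list was not tested as a set. In PWK/PhJ against the other strains, 9 of 25 passed in Drd1+ neurons (1 higher and 8 lower) and 7 of 24 in Drd2+ neurons (1 higher and 6 lower), near the 34.3% and 30.3% of all genes. The median log2 difference of the list was -0.12 and -0.10 against 0.01 over all genes in both. The gene higher in both was Vav3, which acts downstream of Eph receptors, with 122 ± 14.0 CPM in PWK/PhJ and 33.2 ± 4.21 in WSB/EiJ in Drd1+ neurons. Its PWK/PhJ level was higher by 1.24 (SE 0.09) in Drd1+ and 1.17 (SE 0.07) in Drd2+ neurons, with edgeR adjusted p = 2.17e-13 and 2.85e-19. Arhgef15, an exchange factor that acts downstream of Ephb2, was lower in PWK/PhJ Drd1+ neurons (6.90 ± 1.72 CPM, log2 difference -0.96, SE 0.17, adjusted p = 9.34e-06) and highest in CAST/EiJ (19.8 CPM). Inppl1, a lipid phosphatase that binds EphA receptors, was low in CAST/EiJ (1.66 CPM) and PWK/PhJ (1.71) and highest in 129S1/SvImJ (4.61, edgeR adjusted p = 0.00714). This gene was sparse and can have passed the filter on low counts through its high strains alone. In Drd2+ neurons it did not pass that filter and was not tested. Of 25 partners, 3 also passed in the interaction (Vav3, Yes1 and Grip1), where 4.58% of all genes did. Ephb3 and Ephb4 were the only receptors outside the 10 with enough counts to test, in astrocytes alone (pooled levels 23.5 and 17.2 CPM), and 0 of 2 were called with edgeR.

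The genes whose pattern was most like that of Epha6 are given as a description. Over the 18 clusters (pooled log2 CPM, 15711 genes compared), the highest Pearson correlations with Epha6 were those of Cntnap5a (0.95), Dpp6 (0.95), Clvs1 (0.95), Cntnap2 (0.94) and Plppr1 (0.94). The closest receptor was Epha4 (0.86), then Epha8 (0.81) and Epha7 (0.76), and the farthest was Ephb1 (-0.12). The clusters share their batches and differ in depth. Over the 32 mice, the log2 ratio of Drd2+ over Drd1+ neurons (6271 genes compared) was most like that of Epha6 for Auts2 (0.83), Pcdh7 (0.83), Reln (0.82), Nlgn1 (0.81) and Rasgef1b (0.79). In each of these the PWK/PhJ mice were at the low end. Their mean ratio was -2.15 ± 0.09 for Reln, -0.95 ± 0.18 for Rasgef1b, -0.43 ± 0.10 for Nlgn1, -0.19 ± 0.10 for Pcdh7 and -0.14 ± 0.04 for Auts2. PWK/PhJ did not overlap with the other 28 mice for any of them but Nlgn1, so 1 strain stands at one end of these correlations, which were not computed without it.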

How the data were processed

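Nuclear RNA of 32 mice (8 strains, 4 batches) was taken from the deposited matrices of raw UMI counts per gene and barcode. Reads were processed with bcl2fastq 2.20.0.422 and Cell Ranger ARC 2.0.0 on builds mm10 and GRCm38, per the submitters' processing notes, so reads of all strains were aligned to 1 build. Per the deposited file descriptions, the authors assigned nuclei to strains with Demuxlet, filtered on detected genes and mitochondrial share, marked doublets with DoubletFinder and annotated 18 clusters. Other deposited columns hold these categories, and the peak index holds positions. Only nuclei that the authors kept entered, and barcodes shared between batches were kept apart by batch. The deposited table names the C57BL/6 substrain differently from the labels, so it is written C57BL/6.

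Counts were summed per mouse and cluster (libraries of at least 10 nuclei), and 9 clusters with at least 3 mice of every strain were tested with edgeR 4.0.16 in R 4.3.3. The fit was the robust quasi-likelihood F-test on TMM-scaled counts with terms for strain and batch, filterByExpr, and Benjamini-Hochberg adjustment over all genes of the cluster. Calls have an adjusted p of at most 0.05. The interaction of strain and cluster had each mouse as a block. Ratios used a prior count of 2. The matrices cover the kept nuclei at the depths given with the results, and mouse totals set the precision of each level. Tables were made with Python 3.11.15, numpy 2.4.6, pandas 2.3.3 and matplotlib 3.10.9. The labels say that a number marks a shared batch: in Drd1+ neurons mice of one batch deviated together from their strain means (mean r = 0.196 over 112 pairs and 6539 genes, against -0.065 for other pairs), and batch was a term for that reason. The fits were tested on simulated data, where a change of 2-fold was recovered for 85.3% of genes in Drd1+ and 87.7% in Drd2+ neurons, 80.3% in oligodendrocytes and 65.5% in astrocytes.

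Alternatives were DESeq2 1.42.0, median-ratio (RLE) scaling, no filter, no batch or mouse block, a minimum of 30 nuclei, each batch left out, plain CPM and a prior count of 0.5. All 10 receptors are named. Of each list of ligands, other receptors and partners, the 3 called genes with the widest span in Drd1+ neurons are named with values, and likeness to Epha6 was ranked by Pearson correlation. The members and lists were chosen with earlier results of these data known.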

Additional observations from a re-analysis of the deposited data

Results flagged for a closer look

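The strain effect differed between Drd1+ and Drd2+ neurons for 3 of the 9 tested receptors by the test of the difference itself (edgeR interaction), with an adjusted p = 1.3e-08 for Epha3, 2.42e-05 for Epha7 and 8.5e-05 for Epha10. Of all genes, 4.58% passed. Without the block of mice, the adjusted p was 1 for Epha7 and 0.338 for Epha10, and Epha3 passed in each of its 9 alternatives (at most 0.0132).

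In 13 of 240 groups of 4 mice, 1 mouse stood apart by Dixon's test, where chance gives about 5% of groups. Each group held the mice of 1 strain, and the groups of Epha6 were included. In Drd1+ neurons these were the A/J mouse of batch 3, with 338 CPM of Epha4 and 1060 CPM of Epha6, each below the other A/J mice, and the WSB/EiJ mouse of batch 1, with 239 CPM of Epha5, above its group. In Drd2+ neurons the CAST/EiJ mouse of batch 2 was above its group for Epha8 (13.6 CPM) and Ephb6 (18.3 CPM), and the NOD/ShiLtJ mouse of batch 3 was below its group for Epha8 (9.5 CPM). Batch 3, the shallowest, held 2 of these mice.

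For the log2 ratio of Drd2+ over Drd1+ neurons, the mouse apart had 0.0334 for Epha3 (WSB/EiJ, batch 2), -0.201 for Epha4 (NOD/ShiLtJ, batch 3), 0.216 for Epha5 (PWK/PhJ, batch 1), 0.459 for Epha10 (129S1/SvImJ, batch 4) and -0.423 for Ephb1 (A/J, batch 2). For the sparse Ephb2 it had -0.913 (A/J, batch 1) and -0.890 (C57BL/6, batch 2).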

How the results depend on the processing

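None of the 50 called differences of a strain from the others reversed its direction under any alternative. Of 28 called strain terms and interactions, 17 passed in each alternative run. The number of called receptors in astrocytes was 3, and ran from 1 (without batch 2) to 2 when 1 batch was left out. In Drd1+ neuron_2 it was 4, and ran from 2 (without batch 1 or 2) to 5 (without batch 4). In Nxph1+ interneurons it was 0, with 1 under DESeq2, 2 without a filter on low counts and 0 to 1 with a batch left out (1 without batch 4). In Polydendrocyte/Oligodendrocyte it was 0, and 1 without a filter. For the interaction it was 3, and 1 with no replicate block, the fit that drops the pairing of the 2 clusters of a mouse. The causes were not tested. With no replicate block the Epha5 strain term passed in Drd1+ (adjusted p = 0.0229, edgeR) and Drd2+ neurons (0.0283), Epha4 in astrocytes did not (0.0587), and 9 of the 50 calls of a strain against the others were lost. Beyond these and the lost interaction calls of Epha7 and Epha10, dropping the block changed no call of a receptor. Scaling by RLE lost the A/J Ephb1 and NZO/HlLtJ Epha5 calls in Drd1+ neurons. The median log2 difference over all genes stayed within 0.02 of 0 under both scalings. With plain totals, 159 of the strain levels in Drd1+ and Drd2+ neurons moved by less than their SD, and 1 did not. That was Epha3 of PWK/PhJ in Drd2+ neurons, at 92.0 CPM. Leaving out 1 of 4 mice cannot move their mean by more than their SD, so the left-out batches could not test these levels. Nor could a minimum of 30 nuclei, since the smallest libraries of the 2 clusters held 283 and 262 nuclei. In macrophages no receptor passed the filter on low counts, and 0 of 10 were called without it (edgeR) and 0 of 5 with DESeq2.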
